A study of Mus musculus with 152 samples.

Results

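Collagens are the triple-helical proteins that give the extracellular matrix its tensile strength, and their genes were followed as a family in mouse liver through 48 weeks on a diet that induces fatty liver disease. The family was taken as every annotated gene whose symbol has the form Col, a number, a and a number, with a nonzero value in any library, which gave 44 of the 54532 genes in the tables. By structural class, 11 code for fibrillar chains, 6 for the type IV chains of basement membranes, 6 for type VI chains and 21 for other collagens. Fibrillar collagens assemble into the cross-banded fibrils of scar, type IV into the sheet-like network of basement membranes, and type VI into beaded filaments around cells. The other collagens include chains that decorate fibrils, membrane-spanning collagens and the multiplexins, which carry glycosaminoglycan chains and yield antiangiogenic fragments. In the liver the fibrillar chains are known as products of activated stellate cells and portal fibroblasts, and their accumulation in the space between hepatocytes and sinusoids defines fibrosis.

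The RNA was extracted from livers of C57BL/6J mice, an inbred strain, which from the age of 8 weeks ate either LIDPAD, the disease-inducing diet, or a purified control diet. Feeding lasted 1, 4, 8, 12, 16, 32 or 48 weeks, and each LIDPAD group was compared with the control group of the same duration. The 152 deposited columns were taken as 38 libraries, 18 of control and 20 of LIDPAD liver. Columns differed less within sets of 4 than between the sets of their group. Each diet had 2 libraries at weeks 1, 4, 8 and 12 and 3 at week 16. Control and LIDPAD had 4 and 5 libraries at week 32, and 3 and 4 at week 48. The labels do not state whether libraries come from separate animals, so every p-value measures only how far these libraries vary, and that variation may be technical. Whole liver was sequenced, so a change in the number of cells of a type and a change in RNA per cell cannot be told apart.

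Levels are given in FPM, the authors' counts scaled by a size factor per column, and a log2 change is LIDPAD minus control on the log2(FPM + 0.5) scale. This scale understates the change of genes at low levels. Each week was fitted over all genes with limma, and a gene with a Benjamini-Hochberg adjusted p under 0.05 was called. Depth was 10870033 to 53802026 reads per library with a median of 28967976. Whether these reads count both ends of a fragment is not given. Of the 44 collagen genes, 29 passed the filter of 1 FPM in at least 1 week and 19 in every week. A gene can pass through the libraries of 1 diet alone, and the direction of its change is then tied to the filter. The other 15 passed in no week, and the highest value of any of them in any library was 2.12 FPM, for Col8a2. These 15 are Col2a1, Col6a4, Col7a1, Col8a2, Col9a1, Col9a2, Col9a3, Col11a1, Col17a1, Col19a1, Col22a1, Col23a1, Col24a1, Col26a1 and Col28a1, and none of them was tested.

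A few libraries stood apart from the rest of their group and touch many of the values below. They were picked partly by their collagen levels. Fits without them therefore show how far a value rests on a library and are no independent test. In control library 2 of week 4, Col1a1 was 21.0 FPM and Col3a1 109 FPM, against 2.73 and 28.1 FPM in the other control library. In control library 3 of week 48, Col1a1 was 38.2 FPM against 2.73 and 2.49 FPM in the other controls. That library also held 934 FPM of H19, an imprinted fetal transcript, 45.5 FPM of the proliferation marker Mki67 and 1.02 FPM of the hepatocyte gene Hsd3b5, while the control medians were 0.0785, 2.48 and 178 FPM. In LIDPAD library 2 of week 1, Col1a1 was 23.7 FPM against 5.56 FPM in the other LIDPAD library. The library labelled LIDPAD 1 of week 32 went against its label for Cfd, at 0.165 FPM, Sqle, at 44.0 FPM, and Alb, at 92258 FPM. For Cfd all other LIDPAD libraries lay above that value, and for Sqle and Alb all lay below. The same library kept to its label for Hsd3b5, at 1.90 FPM, the macrophage marker Gpnmb, at 65.5 FPM, and H19, at 79.6 FPM. Week 32 controls had at least 83.1 FPM of Hsd3b5 and at most 0.406 FPM of Gpnmb and 0.0669 FPM of H19. Mki67 was 17.5 FPM in that library and at most 13.7 FPM in those controls. The Col3a1 of LIDPAD library 1, 28.1 FPM, was next to the week 32 control values, whereas its Col4a5 of 23.9 FPM was not.

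Across the 7 weeks, 23 collagen genes were called at least once, 17 only as higher and 6 only as lower in LIDPAD liver. The share of all genes called at least once was not taken, so shares are given by week. At week 1, 0 of 19 tested collagen genes were higher and 1 was lower, against 0.726% and 1.27% of all genes tested, and limma gave 6 an unadjusted p under 0.05. At week 4, 0 of 20 were called in either direction by limma, edgeR or DESeq2, 1 had an unadjusted p under 0.05, and 0.121% and 0.166% of all genes were called higher and lower. At week 8, 8 of 23 were higher and 2 lower, against 3.85% and 1.75% of all genes. At week 12, 14 of 24 were higher and 2 lower, against 8.99% and 6.25%. At week 16, 16 of 25 were higher and 6 lower, against 16.3% and 12.0%. Thus 22 of the 25 collagen genes tested at week 16 were called.

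Later weeks held fewer calls. At week 32, 15 of 25 tested collagen genes were higher and 2 lower, against 18.0% and 8.82% of all genes. At week 48, 7 of 27 were higher and 1 lower, against 6.54% and 3.34%. The week 48 count rests on control library 3: without it 18 of 28 were higher and 5 lower, against 22.3% and 15.4% of all genes. Collagen levels helped to single that library out, so these counts are no independent test. Leaving out any other library of week 48 left at most 1 collagen gene higher and 1 lower. The median log2 change of the tested collagen genes was 0.33, -0.0017, 0.37, 0.82, 1.01, 1.17 and 0.85 from week 1 to week 48. The median of all genes tested lay between -0.0081 and 0.038 in those weeks.

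**Figure D1:**
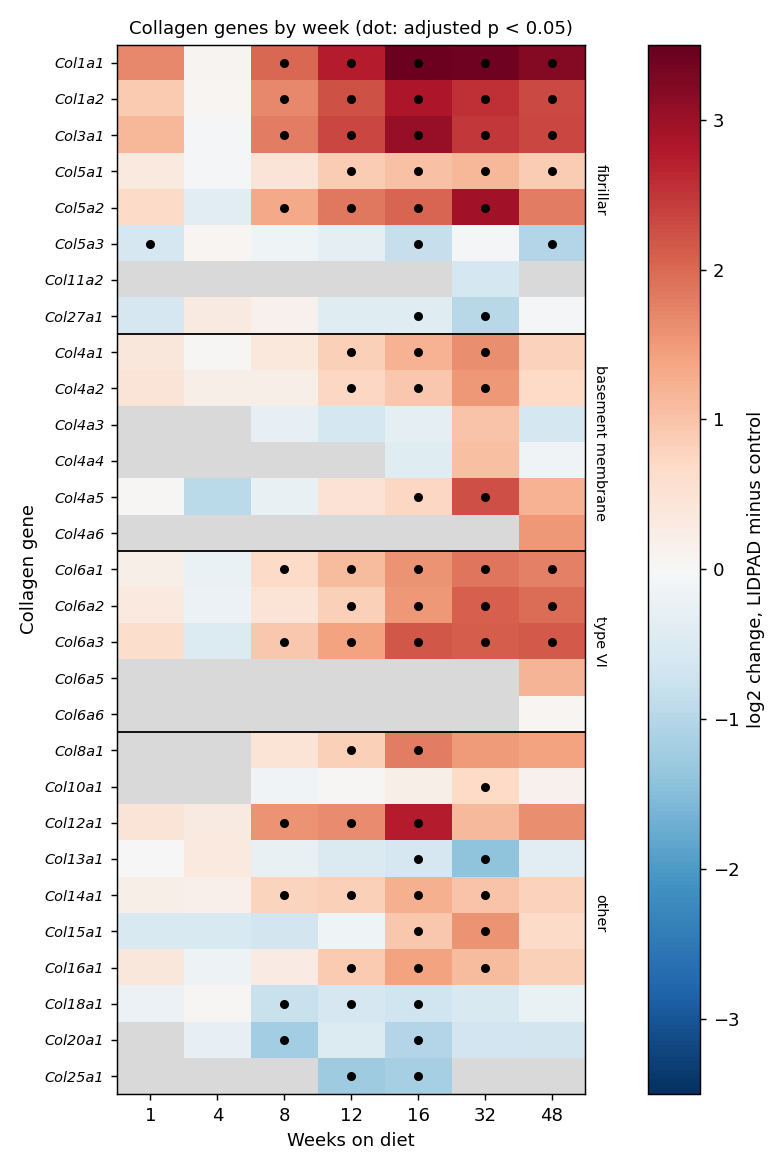
Log2 change, LIDPAD minus control on the log2(FPM + 0.5) scale, of the 29 tested collagen genes (rows, by class) at each week on diet (columns). Red is higher and blue lower in LIDPAD, grey was not tested, and a dot marks an adjusted p under 0.05. Dots are sparse at weeks 1 and 4 and most frequent at week 16, where 16 genes were higher and 6 lower.

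Of the 17 genes that rose, 8 were first called at week 8, 6 at week 12, 2 at week 16 and 1 at week 32. The first to be called were the fibrillar chains Col1a1, Col1a2, Col3a1 and Col5a2, the type VI chains Col6a1 and Col6a3, and the fibril-associated Col12a1 and Col14a1. Col4a1, Col4a2, Col5a1, Col6a2, Col8a1 and Col16a1 followed at week 12, Col4a5 and Col15a1 at week 16, and Col10a1 at week 32. A first call is not shown to be a later onset, since depth and the number of libraries differ between weeks. At week 8 the calls of Col1a1, Col1a2 and Col3a1 stayed under the threshold whichever library was left out. The other 7 of the 10 calls of that week were lost without LIDPAD library 1 and also without LIDPAD library 2, which leaves 1 LIDPAD library.

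Col1a1 and Col1a2 encode the chains of type I collagen, the main fibril of scar. Col1a1 (chr11:94936224-94953042 in GRCm38) stood at 3.53 and 3.00 FPM in control and 5.56 and 23.7 FPM in LIDPAD libraries at week 1. Its values at week 4 were 2.73 and 21.0 FPM in control and 9.88 and 6.99 FPM in LIDPAD libraries. In neither week was it called, with log2 changes of 1.69 ± 0.54 (SE, adjusted p = 0.194) and 0.08 ± 0.79 (SE, adjusted p = 0.98). Week 8 Col1a1 levels were 3.80 and 3.47 FPM in control and 17.0 and 15.2 FPM in LIDPAD libraries. By week 12 Col1a1 reached 3.77 and 5.84 FPM in control and 30.4 and 39.5 FPM in LIDPAD libraries. Week 16 Col1a1 levels were 3.79, 6.98 and 4.14 FPM in control and 64.2, 48.4 and 57.5 FPM in LIDPAD libraries. The diet groups did not overlap in any of these 3 weeks, and Col1a1 rose by 2.01 ± 0.14 (SE, adjusted p = 0.00161), 2.76 ± 0.21 (SE, adjusted p = 9.30e-05) and 3.42 ± 0.20 (SE, adjusted p = 1.37e-06) on the log2 scale. At week 16 the mean of Col1a1 was 4.97 ± 1.75 FPM (SD, n = 3) in control and 56.7 ± 7.92 FPM (SD, n = 3) in LIDPAD libraries.

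In the long feeding groups Col1a1 stayed high. Week 32 Col1a1 levels were 3.17, 3.69, 2.85 and 3.38 FPM in control and 11.6, 44.6, 89.6, 41.1 and 48.7 FPM in LIDPAD libraries. At week 48 they were 2.73, 2.49 and 38.2 FPM in control and 74.2, 57.5, 71.7 and 62.7 FPM in LIDPAD libraries. LIDPAD library 1 of week 32 was the lowest of its group but still above all controls, and control library 3 of week 48 was the only control near the LIDPAD values. The log2 change of Col1a1 was 3.41 ± 0.44 (SE, adjusted p = 3.64e-04) at week 32 and 3.21 ± 0.80 (SE, adjusted p = 0.0445) at week 48. Without control library 3, which stood apart partly by this gene, the week 48 change was 4.42.

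Col1a2 (chr6:4504814-4541544) moved with its partner chain. Its week 8 values were 7.61 and 7.41 FPM in control and 25.6 and 24.5 FPM in LIDPAD libraries. Col1a2 was measured at 9.37 and 9.65 FPM in control and 44.1 and 49.4 FPM in LIDPAD libraries at week 12. Week 16 Col1a2 levels were 7.79, 11.1 and 10.9 FPM in control and 76.0, 65.6 and 75.7 FPM in LIDPAD libraries. No control library of these weeks reached the lowest LIDPAD library, and Col1a2 rose by 1.67 ± 0.11 (SE, adjusted p = 0.00161), 2.24 ± 0.12 (SE, adjusted p = 1.67e-05) and 2.82 ± 0.14 (SE, adjusted p = 5.54e-07). Week 32 Col1a2 levels were 8.96, 9.55, 8.40 and 8.42 FPM in control and 20.4, 51.6, 104, 59.4 and 72.3 FPM in LIDPAD libraries. Week 48 Col1a2 levels were 9.92, 7.71 and 45.5 FPM in control and 86.6, 74.1, 78.5 and 75.6 FPM in LIDPAD libraries. Groups were again apart, with changes of 2.56 ± 0.36 (SE, adjusted p = 5.93e-04) and 2.32 ± 0.52 (SE, adjusted p = 0.0315). Earlier, Col1a2 stood at 9.33 and 8.40 FPM in control and 10.6 and 27.6 FPM in LIDPAD libraries at week 1. At week 4 the Col1a2 values were 7.66 and 27.0 FPM in control and 17.5 and 13.0 FPM in LIDPAD libraries, where the diets overlapped; at week 1 they did not, and neither week gave a call.

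Col3a1 (chr1:45311538-45349706) encodes the single chain of type III collagen, which forms fine reticular fibrils with type I. Per length its level had a median over weeks of 2.70 FPM per kb of exon in controls and 15.7 in LIDPAD livers, with each week normalized separately. That was the highest of the fibrillar chains in LIDPAD livers, while in controls Col5a3 was higher, at 5.68 FPM per kb. Exon length is the union of all annotated exons, 9816 bases for Col3a1 and 6809 for Col5a3, so this order depends on the annotation. Week 8 Col3a1 levels were 26.8 and 23.4 FPM in control and 89.0 and 85.8 FPM in LIDPAD libraries. At week 12 Col3a1 was 27.4 and 32.7 FPM in control and 149.7 and 159 FPM in LIDPAD libraries. Week 16 Col3a1 levels were 29.9, 31.1 and 27.5 FPM in control and 264, 222 and 253 FPM in LIDPAD libraries. The week 16 groups were the most clearly apart of any collagen gene by p-value, with a rise of 3.04 ± 0.10 (SE, adjusted p = 3.89e-08), after 1.78 ± 0.11 (SE, adjusted p = 0.00118) at week 8 and 2.35 ± 0.12 (SE, adjusted p = 1.36e-05) at week 12.

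Col3a1 spread more at weeks 32 and 48. Week 32 Col3a1 levels were 20.5, 25.9, 22.5 and 26.9 FPM in control and 28.1, 114, 277, 206 and 246 FPM in LIDPAD libraries. LIDPAD library 1 lay just above the highest control there, and library 3 was the highest. The change at week 32 was 2.48 ± 0.55 (SE, adjusted p = 0.00704), and without LIDPAD library 1 it was 3.04. Week 48 Col3a1 levels were 26.5, 20.4 and 137 FPM in control and 250.3, 197, 198 and 220.5 FPM in LIDPAD libraries, a change of 2.34 ± 0.57 (SE, adjusted p = 0.0408). Without control library 3 that change was 3.18. At weeks 1 and 4 Col3a1 was not called: it was 25.4 and 24.7 FPM in control and 32.5 and 98.2 FPM in LIDPAD libraries at week 1. Its week 4 values were 28.1 and 109 FPM in control and 56.5 and 50.8 FPM in LIDPAD libraries.

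**Figure D2:**
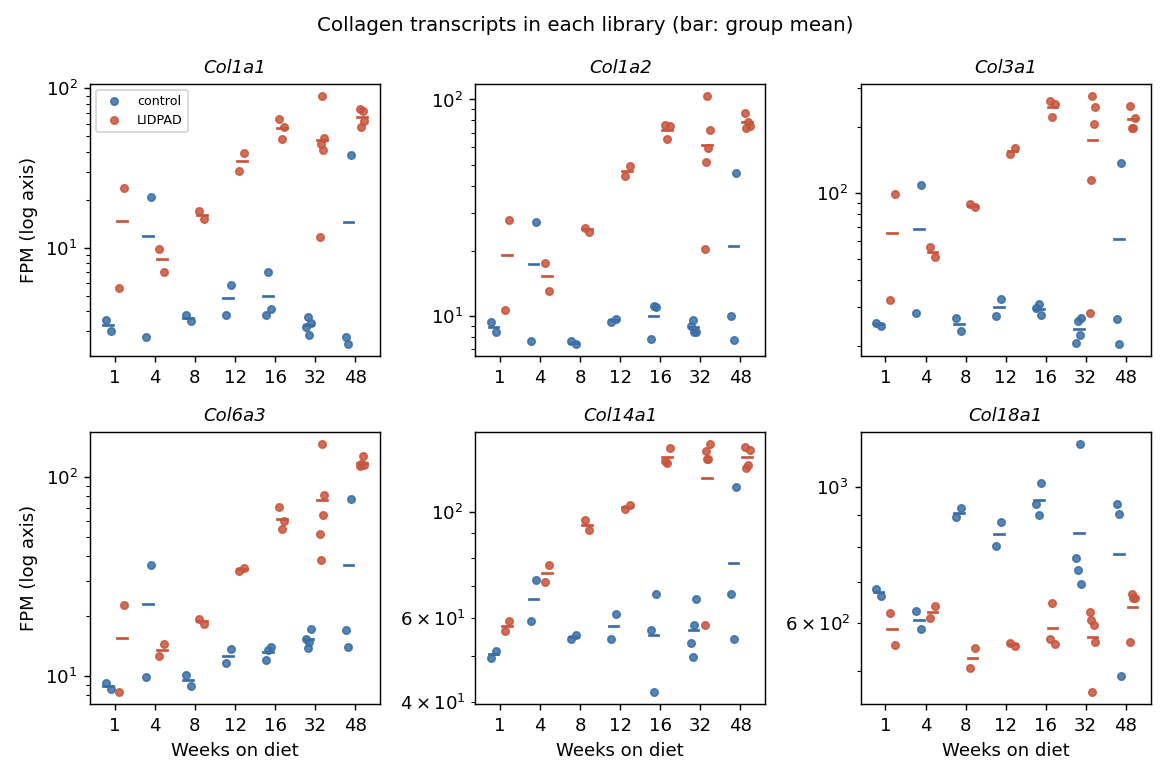
FPM on log axes in each library by weeks on diet for 6 collagen genes; blue points are control and red points LIDPAD libraries, and bars are group means. From week 8 to week 48 no LIDPAD library lies below a control library of its week for Col1a1, Col1a2, Col3a1 and Col6a3, and for Col18a1 none lies above one at weeks 8, 12, 16 and 32.

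Type V collagen is a minor fibrillar collagen that starts fibrils and limits their width, and its 3 chains did not move together. Col5a1 (chr2:27886425-28039514) rose at week 12 by 0.90 ± 0.15 (SE, adjusted p = 0.0056) and at week 16 by 1.01 ± 0.12 (SE, adjusted p = 1.02e-04). It also rose at week 32, by 1.17 ± 0.24 (SE, adjusted p = 0.00499), and at week 48, by 0.89 ± 0.19 (SE, adjusted p = 0.0284). Its week 16 values were 10.8, 13.4 and 12.8 FPM in control and 26.1, 24.5 and 25.2 FPM in LIDPAD libraries. Col5a2 (chr1:45374321-45503282) rose by 1.33 ± 0.16 (SE, adjusted p = 0.0105) at week 8, 1.84 ± 0.17 (SE, adjusted p = 3.37e-04) at week 12 and 2.04 ± 0.15 (SE, adjusted p = 9.17e-06) at week 16. Week 32 Col5a2 levels were 2.28, 3.20, 1.53 and 2.96 FPM in control and 13.1, 21.9, 32.6, 21.9 and 25.3 FPM in LIDPAD libraries, and the rise of 2.95 ± 0.26 (SE, adjusted p = 5.14e-05) had the smallest p of any collagen gene that week. At week 48 Col5a2 was not called, at 3.26, 2.34 and 27.5 FPM in control and 29.1, 20.5, 20.4 and 21.0 FPM in LIDPAD libraries. Without control library 3 its change was 2.81.

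Col5a3 (chr9:20770050-20815067) went the other way. This chain of type V collagen stood at 27.6 and 25.8 FPM in control and 18.3 and 17.2 FPM in LIDPAD libraries at week 1, where it was the only collagen gene called, with a fall of 0.58 ± 0.10 (SE, adjusted p = 0.0405) on the log2 scale. That call was lost when either control library was left out. Week 16 Col5a3 levels were 40.0, 57.6 and 43.9 FPM in control and 27.2, 26.9 and 25.0 FPM in LIDPAD libraries. At week 48 they were 46.8, 34.7 and 51.0 FPM in control and 18.6, 23.0, 21.8 and 21.7 FPM in LIDPAD libraries. No LIDPAD library reached the control range in either week, and Col5a3 fell by 0.81 ± 0.13 (SE, adjusted p = 9.33e-04) and 1.02 ± 0.14 (SE, adjusted p = 0.0111). Week 32 Col5a3 values overlapped fully, at 49.7, 36.9, 36.8 and 26.1 FPM in control and 20.0, 61.3, 32.3, 40.8 and 34.4 FPM in LIDPAD libraries, with a change of -0.04 ± 0.28 (SE, adjusted p = 0.939). The week 48 call was the one collagen fall of that week, and it was not made when LIDPAD library 3 was left out.

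The remaining fibrillar genes lie at low levels or also fell. Col27a1, a fibrillar chain known from cartilage, fell by 0.43 ± 0.11 (SE, adjusted p = 0.0164) at week 16 and by 0.98 ± 0.32 (SE, adjusted p = 0.0414) at week 32. Its week 16 values were 43.2, 54.3 and 43.4 FPM in control and 35.5, 32.1 and 36.5 FPM in LIDPAD libraries. Its week 32 values were 45.0, 23.0, 29.1 and 31.8 FPM in control and 15.6, 6.79, 22.5, 19.1 and 20.5 FPM in LIDPAD libraries. Both calls of Col27a1 were lost without single libraries, with adjusted p of up to 0.0618 at week 16, without LIDPAD library 2, and of up to 0.121 at week 32, without control library 1. Neither was called when each library was rescaled to the same total. Col11a2 was tested at week 32 alone, without a call, with a change of -0.62 ± 0.35 (SE, adjusted p = 0.217). By class, fibrillar genes had a median log2 change of 1.33 at week 8, 1.84 at week 12, 2.04 at week 16, 1.83 at week 32 and 1.78 at week 48. At week 16 all 7 tested fibrillar genes were called, 5 higher and 2 lower.

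The stretches directly upstream of the start sites of 4 collagen genes that moved in different ways are shown for comparison: Col3a1 and Col6a3 as fibrillar and type VI chains that rose, and Col5a1 and Col5a3 as chains of the same collagen with opposite changes. Each is the 250 bases before the RefSeq start, 5′ to 3′ on the coding strand, in GRCm38.p6. Capitals mark matches on either strand to CCAAT, to GGGCGG, the GC box, or to TATAAA, the TATA box.
Col3a1 (chr1:45311288-45311537, plus strand): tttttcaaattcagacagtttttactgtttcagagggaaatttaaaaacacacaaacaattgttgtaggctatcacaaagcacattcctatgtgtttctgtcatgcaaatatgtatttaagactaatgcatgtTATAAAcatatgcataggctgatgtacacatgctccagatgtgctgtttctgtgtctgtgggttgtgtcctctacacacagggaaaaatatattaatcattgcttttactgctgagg
Col5a1 (chr2:27886175-27886424, plus strand): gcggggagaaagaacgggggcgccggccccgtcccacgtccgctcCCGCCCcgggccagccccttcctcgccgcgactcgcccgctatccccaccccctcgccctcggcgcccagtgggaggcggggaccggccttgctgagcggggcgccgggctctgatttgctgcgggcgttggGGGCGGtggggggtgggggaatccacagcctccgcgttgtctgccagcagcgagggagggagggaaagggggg
Col5a3 (chr9:20815068-20815317, minus strand): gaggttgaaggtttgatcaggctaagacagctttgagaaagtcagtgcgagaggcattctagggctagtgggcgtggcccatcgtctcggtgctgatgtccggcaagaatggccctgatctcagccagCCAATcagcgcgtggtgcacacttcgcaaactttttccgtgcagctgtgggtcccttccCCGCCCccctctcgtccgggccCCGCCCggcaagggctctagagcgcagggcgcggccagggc
Col6a3 (chr1:90843972-90844221, minus strand): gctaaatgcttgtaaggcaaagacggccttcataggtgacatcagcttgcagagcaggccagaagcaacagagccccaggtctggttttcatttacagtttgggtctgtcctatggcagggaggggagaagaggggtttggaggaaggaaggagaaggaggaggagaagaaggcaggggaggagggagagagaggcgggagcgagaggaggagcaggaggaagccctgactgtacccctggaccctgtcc
The Col3a1 stretch held 1 TATAAA and its GC content was 35.2%. Col5a1 had 2 GC boxes at 76.4% GC, Col5a3 had 2 GC boxes and 1 CCAAT at 62.8% GC, and Col6a3 had none of the 3 motifs at 57.2% GC. RefSeq windows were matched for 35 of the 44 genes, 38 windows in all. A GC box was found in 22 of 38 collagen windows (57.9%) and in 32.7% of 32851 windows over all genes, where the median GC content was 59.0% and 52.4%. CCAAT was found in 34.2% of collagen windows and 33.9% of all, and TATAAA in 13.2% and 12.4%. These matches describe letters and not binding.

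Type I collagen is built from more Col1a1 than Col1a2 chains, and the transcript ratio of both genes per kb of exon was followed as a description. Exon length is the union of all annotated exons, 6563 bases for Col1a1 and 12426 for Col1a2. The size of a ratio depends on these lengths and is not a ratio of chains, so only its difference between diets is read. In the 18 control libraries the ratio of Col1a1 to Col1a2 had a median of 0.746 and ranged from 0.522 to 1.59. In the 20 LIDPAD libraries its median was 1.42 and its range 0.988 to 1.73. At week 16 the ratio ran from 0.715 to 1.19 in controls and from 1.40 to 1.60 in LIDPAD livers, and the groups did not overlap. The highest control ratios were 1.59 in control library 3 of week 48 and 1.47 in control library 2 of week 4. The ratio of Col3a1 to Col1a1 had a median of 4.77 in controls and 2.86 in LIDPAD libraries. The ratios of Col4a1 to Col4a2, with medians of 1.84 and 1.98, and of Col6a1 to Col6a2, with medians of 3.30 and 3.02, lay closer between diets.

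**Figure D3:**
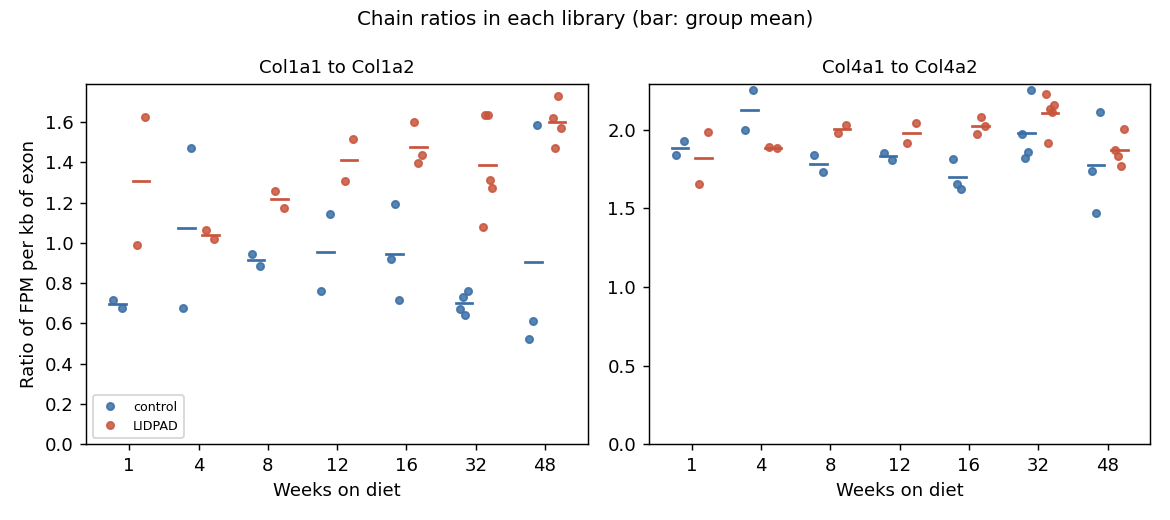
Ratio of FPM per kb of exon in each library by weeks on diet, for Col1a1 to Col1a2 (left) and Col4a1 to Col4a2 (right); blue points are control and red points LIDPAD libraries, bars are group means and the axes start at 0. The Col1a1 to Col1a2 ratio ran from 0.522 to 1.59 in controls and from 0.988 to 1.73 in LIDPAD libraries, while the Col4a1 to Col4a2 medians were 1.84 and 1.98.

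Of the type IV chains of basement membranes, Col4a1 and Col4a2 were first called at week 12, and the difference from the fibrillar chains was not tested. Col4a1 (chr8:11198423-11312826) and Col4a2 (chr8:11312805-11449287) encode the chains of the common type IV network. They lie head to head with annotated starts 21 bases apart and overlap by 22 bases, and the strand setting of the counting is not given in the sources used here. Week 8 Col4a1 levels were 51.5 and 41.8 FPM in control and 63.6 and 56.9 FPM in LIDPAD libraries. At week 12 Col4a1 was 44.3 and 44.3 FPM in control and 75.3 and 84.8 FPM in LIDPAD libraries. Week 16 Col4a1 levels were 54.1, 43.9 and 51.0 FPM in control and 118, 111 and 115 FPM in LIDPAD libraries. The groups did not overlap in these weeks, yet Col4a1 was called only from week 12 on, after a week 8 change of 0.37 ± 0.13 (SE, adjusted p = 0.145). It rose by 0.84 ± 0.11 (SE, adjusted p = 0.00155) at week 12 and 1.21 ± 0.10 (SE, adjusted p = 1.50e-05) at week 16. Week 32 Col4a1 levels were 38.6, 43.9, 51.5 and 48.3 FPM in control and 117, 200.1, 209.8, 97.8 and 119.6 FPM in LIDPAD libraries, a rise of 1.63 ± 0.23 (SE, adjusted p = 5.54e-04).

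Col4a2 followed the same course. Its week 8 values were 24.9 and 21.4 FPM in control and 28.5 and 24.8 FPM in LIDPAD libraries, which overlapped. Col4a2 was 21.2 and 21.7 FPM in control and 34.8 and 36.8 FPM in LIDPAD libraries at week 12. Week 16 Col4a2 levels were 26.4, 23.5 and 27.9 FPM in control and 53.2, 47.3 and 50.4 FPM in LIDPAD libraries. At both times the lowest LIDPAD library exceeded the highest control, with rises of 0.73 ± 0.11 (SE, adjusted p = 0.00329) and 0.94 ± 0.10 (SE, adjusted p = 7.45e-05). Week 32 Col4a2 levels were 17.3, 21.4, 24.6 and 19.0 FPM in control and 46.4, 92.5, 87.3, 41.0 and 49.2 FPM in LIDPAD libraries, a rise of 1.53 ± 0.25 (SE, adjusted p = 0.00129). LIDPAD libraries 2 and 3 were the highest of week 32 for both chains.

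Neither chain was called at week 48. Col4a1 was 34.3, 29.0 and 165 FPM in control and 100.5, 93.4, 91.6 and 97.8 FPM in LIDPAD libraries at week 48. Col4a2 was 17.5, 17.5 and 69.0 FPM in control and 47.6, 45.3, 45.9 and 43.2 FPM in LIDPAD libraries. Control library 3 had the highest value of either diet for both, and the other 2 controls lay below all LIDPAD libraries. Without it the changes were 1.59 for Col4a1 and 1.35 for Col4a2. In the first weeks Col4a1 was 31.3 and 36.4 FPM in control and 33.2 and 60.6 FPM in LIDPAD libraries at week 1 and 32.6 and 88.7 FPM in control and 52.4 and 58.3 FPM in LIDPAD libraries at week 4. Col4a2 was 15.1 and 16.7 FPM in control and 17.8 and 27.1 FPM in LIDPAD libraries at week 1 and 14.5 and 34.9 FPM in control and 24.6 and 27.4 FPM in LIDPAD libraries at week 4. None of these was called, and control library 2 of week 4 was the highest for both chains.

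Col4a5 (chrX:141475385-141689234) encodes a chain that joins Col4a3 and Col4a4 in specialised basement membranes or Col4a6 in others. Week 4 Col4a5 levels were 2.71 and 4.40 FPM in control and 1.78 and 1.36 FPM in LIDPAD libraries; with a change of -0.94 ± 0.29 (SE, adjusted p = 0.309) it had the smallest p of the family that week and was not called. At week 16 Col4a5 was 1.91, 2.72 and 2.81 FPM in control and 4.98, 4.93 and 3.29 FPM in LIDPAD libraries. Week 32 Col4a5 levels were 1.11, 1.04, 2.74 and 2.70 FPM in control and 23.9, 4.52, 24.4, 5.38 and 7.10 FPM in LIDPAD libraries. The groups were apart in both weeks, and LIDPAD libraries 1 and 3 of week 32 exceeded the other 3 LIDPAD libraries more than 3-fold. Col4a5 rose by 0.71 ± 0.21 (SE, adjusted p = 0.0261) and 2.24 ± 0.51 (SE, adjusted p = 0.00816). The week 16 call was lost without control library 1, LIDPAD library 1 or LIDPAD library 2, with adjusted p of up to 0.109. Week 48 Col4a5 values were 2.06, 3.11 and 10.4 FPM in control and 8.32, 10.9, 10.3 and 11.8 FPM in LIDPAD libraries. Col4a5 was not called there with all libraries, and its change without control library 3 was 1.82.

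Col4a3 and Col4a4, which lie 71 bases apart on chromosome 1, and Col4a6, next to Col4a5, were not called by limma with all libraries in any week. At week 32 DESeq2 called both Col4a3 and Col4a4 higher, and limma did so within a set of 3 libraries per diet that divided their reads alike among the columns, set B (adjusted p = 0.00482 and 0.0296). Week 32 Col4a3 levels were 1.96, 2.07, 1.34 and 1.90 FPM in control and 10.3, 7.06, 4.94, 1.72 and 1.53 FPM in LIDPAD libraries. Col4a4 was 1.30, 0.748, 1.23 and 1.02 FPM in control and 4.92, 2.01, 8.14, 1.13 and 1.43 FPM in LIDPAD libraries at week 32. In both genes LIDPAD libraries 1, 2 and 3 were above all controls and libraries 4 and 5 lay within or close to the control range. Libraries 1, 2 and 3 are the LIDPAD libraries of set B and 4 and 5 are not, so this split coincides with the sets. LIDPAD libraries 1 and 3 also had the highest sums of the cholangiocyte list that week, 58.7 and 64.0 FPM. Library 2 had 17.8 FPM, and libraries 4 and 5 had 13.5 and 16.0 FPM. The part of those cells or of the sets in the type IV values was not tested. Col4a6 was tested at week 48 only, at 0.0824, 0.167 and 1.94 FPM in control and 1.52, 2.27, 3.10 and 2.73 FPM in LIDPAD libraries. Its change was 1.53 ± 0.49 (SE, adjusted p = 0.0861) and, without control library 3, 2.19. As a class, 0 of 4 tested type IV genes were called at week 8 by limma, edgeR or DESeq2, with 1 at an unadjusted p under 0.05. The limma counts were 2 of 4 at week 12, 3 of 5 at week 16 and at week 32, and 0 of 6 at week 48. All of these calls were rises, against 8.99%, 16.3%, 18.0% and 6.54% of all genes called higher in those weeks. At week 32 DESeq2 called 5 of 5, and the share of all genes it called was not taken. At week 48 limma gave 2 of the 6 an unadjusted p under 0.05, and edgeR and DESeq2 each called 0. Without control library 3 limma called 4 of 6 higher, against 22.3% of all genes.

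**Figure D4:**
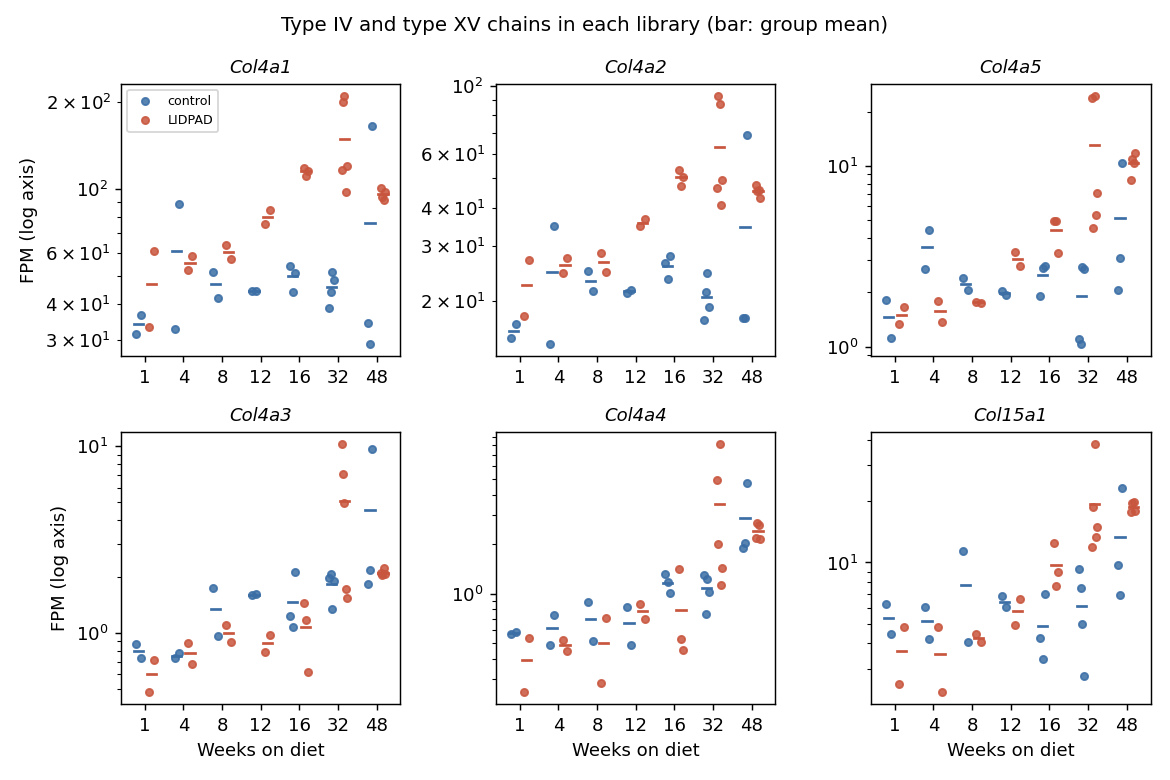
FPM on log axes in each library by weeks on diet for 5 type IV chains and Col15a1; blue points are control and red points LIDPAD libraries, and bars are group means. Col4a1 and Col4a2 separate by diet at weeks 12, 16 and 32, the single high control at week 48 is control library 3, and at week 32 Col4a5 reached 23.9 and 24.4 FPM in 2 LIDPAD libraries.

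Type VI collagen was the class whose tested chains all rose from week 12 to week 32. Col6a1, Col6a2 and Col6a3 encode the chains of the common heterotrimer. Col6a1 (chr10:76708792-76726168) stood at 5.29 and 5.47 FPM in control and 8.25 and 9.59 FPM in LIDPAD libraries at week 8. Week 12 Col6a1 levels were 5.15 and 6.30 FPM in control and 11.3 and 14.6 FPM in LIDPAD libraries. At week 16 Col6a1 was 4.74, 6.55 and 8.46 FPM in control and 21.2, 19.8 and 19.2 FPM in LIDPAD libraries. It rose in each week, by 0.68 ± 0.14 (SE, adjusted p = 0.044), 1.11 ± 0.17 (SE, adjusted p = 0.00374) and 1.57 ± 0.18 (SE, adjusted p = 9.43e-05). Week 32 Col6a1 levels were 5.04, 7.41, 6.10 and 5.57 FPM in control and 27.1, 22.6, 30.4, 19.1 and 19.7 FPM in LIDPAD libraries. Week 48 Col6a1 levels were 7.20, 5.95 and 17.1 FPM in control and 30.1, 31.0, 31.8 and 34.8 FPM in LIDPAD libraries. The lowest LIDPAD library lay above the highest control in both weeks, with changes of 1.88 ± 0.17 (SE, adjusted p = 5.89e-05) and 1.76 ± 0.31 (SE, adjusted p = 0.0177). At weeks 1 and 4 Col6a1 was 4.71 and 4.89 FPM in control and 4.55 and 6.88 FPM in LIDPAD libraries and 5.32 and 10.4 FPM in control and 6.93 and 5.60 FPM in LIDPAD libraries in turn, without a call.

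Col6a2 (chr10:76595762-76623630) was first called at week 12. It was 3.04 and 2.61 FPM in control and 4.09 and 4.15 FPM in LIDPAD libraries at week 8, with a change of 0.48 ± 0.16 (SE, adjusted p = 0.136). At week 12 Col6a2 was 2.96 and 4.45 FPM in control and 6.06 and 7.81 FPM in LIDPAD libraries. Week 16 Col6a2 levels were 3.45, 4.17 and 4.01 FPM in control and 12.3, 11.7 and 11.9 FPM in LIDPAD libraries. It rose by 0.84 ± 0.22 (SE, adjusted p = 0.0328) and 1.51 ± 0.14 (SE, adjusted p = 2.52e-05); the week 12 call was lost without control library 1 (adjusted p = 0.0604) and without LIDPAD library 2 (adjusted p = 0.201). Week 32 Col6a2 levels were 3.64, 3.41, 3.36 and 3.10 FPM in control and 18.1, 13.3, 27.2, 12.9 and 12.6 FPM in LIDPAD libraries. Week 48 Col6a2 levels were 3.79, 3.56 and 14.2 FPM in control and 24.7, 21.7, 26.9 and 23.1 FPM in LIDPAD libraries. Those groups did not overlap, and the changes were 2.10 ± 0.22 (SE, adjusted p = 1.22e-04) and 1.95 ± 0.41 (SE, adjusted p = 0.0267). Col6a2 had been 2.07 and 2.92 FPM in control and 2.14 and 4.76 FPM in LIDPAD libraries at week 1. At week 4 it was 3.22 and 5.39 FPM in control and 3.16 and 3.97 FPM in LIDPAD libraries, and neither week gave a call.

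Col6a3 (chr1:90765923-90843971) encodes the largest chain of type VI, the source of endotrophin. Week 8 Col6a3 levels were 10.1 and 8.89 FPM in control and 19.2 and 18.3 FPM in LIDPAD libraries. At week 12 Col6a3 was 11.6 and 13.6 FPM in control and 33.7 and 34.9 FPM in LIDPAD libraries. Week 16 Col6a3 levels were 12.0, 13.5 and 13.9 FPM in control and 70.4, 54.6 and 59.6 FPM in LIDPAD libraries. All LIDPAD libraries were above all controls, with rises of 0.95 ± 0.12 (SE, adjusted p = 0.0109), 1.42 ± 0.13 (SE, adjusted p = 2.53e-04) and 2.18 ± 0.12 (SE, adjusted p = 8.72e-07). Week 32 Col6a3 levels were 15.3, 13.7, 14.8 and 17.2 FPM in control and 51.5, 38.2, 146, 64.0 and 80.8 FPM in LIDPAD libraries. Week 48 Col6a3 levels were 16.9, 13.9 and 77.3 FPM in control and 113, 116, 128 and 115 FPM in LIDPAD libraries. No control library reached the lowest LIDPAD library in either week, and the changes were 2.13 ± 0.31 (SE, adjusted p = 6.85e-04) and 2.14 ± 0.51 (SE, adjusted p = 0.0391). Before, Col6a3 was 9.20 and 8.60 FPM in control and 8.28 and 22.7 FPM in LIDPAD libraries at week 1. Its week 4 values were 9.84 and 36.2 FPM in control and 12.6 and 14.4 FPM in LIDPAD libraries, and the diets overlapped in both weeks.

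The 3 week 48 calls of type VI were lost in at least 1 fit without a library. Without control library 3 the changes were 2.20 for Col6a1, 2.55 for Col6a2 and 2.90 for Col6a3. Col6a5 and Col6a6 encode chains that can take the place of the Col6a3 chain, and both were tested at week 48 alone. Col6a5 was 0.0777, 0.215 and 2.09 FPM in control and 1.93, 1.67, 1.98 and 1.76 FPM in LIDPAD libraries at that time, with a change of 1.19 ± 0.47 (SE, adjusted p = 0.15). Col6a6 was 0.396, 0.867 and 2.29 FPM in control and 1.19, 0.863, 1.26 and 1.000 FPM in LIDPAD libraries, with a change of 0.06 ± 0.36 (SE, adjusted p = 0.937). Neither was called with all libraries. The class median log2 change was 0.68 at week 8, 1.11 at week 12, 1.57 at week 16, 2.10 at week 32 and 1.76 at week 48.

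Among fibril-associated collagens, which bind the surface of type I fibrils, Col12a1, Col14a1 and Col16a1 rose and Col20a1 fell. Col14a1 (chr15:55307750-55520803) stood at 54.1 and 55.2 FPM in control and 96.1 and 91.4 FPM in LIDPAD libraries at week 8. Week 12 Col14a1 levels were 54.3 and 61.2 FPM in control and 101 and 103 FPM in LIDPAD libraries. At week 16 Col14a1 was 56.6, 42.0 and 67.3 FPM in control and 128, 127 and 136 FPM in LIDPAD libraries. The groups were apart in all 3 weeks, with rises of 0.77 ± 0.09 (SE, adjusted p = 0.0105), 0.82 ± 0.11 (SE, adjusted p = 0.0017) and 1.25 ± 0.15 (SE, adjusted p = 1.18e-04). Week 32 Col14a1 levels were 53.1, 49.7, 58.0 and 65.6 FPM in control and 57.8, 134, 129, 129 and 138 FPM in LIDPAD libraries. There LIDPAD library 1 fell inside the control range, the change was 0.99 ± 0.24 (SE, adjusted p = 0.0109), and without that library it was 1.23. Week 48 Col14a1 levels were 67.3, 54.2 and 112 FPM in control and 136, 123, 125 and 135 FPM in LIDPAD libraries. They were not called with all libraries, and the change without control library 3 was 1.10. Col14a1 had been 49.5 and 51.1 FPM in control and 56.4 and 59.0 FPM in LIDPAD libraries at week 1 and 58.9 and 72.1 FPM in control and 71.4 and 77.2 FPM in LIDPAD libraries at week 4.

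Col12a1 rose by 1.56 ± 0.18 (SE, adjusted p = 0.009) at week 8, 1.66 ± 0.18 (SE, adjusted p = 8.01e-04) at week 12 and 2.74 ± 0.21 (SE, adjusted p = 8.61e-06) at week 16. Its week 16 values were 1.81, 1.12 and 1.46 FPM in control and 15.6, 9.71 and 12.8 FPM in LIDPAD libraries, and no control came near the LIDPAD libraries. Week 32 Col12a1 levels were 2.85, 5.07, 1.68 and 9.59 FPM in control and 5.69, 9.18, 11.2, 10.1 and 11.7 FPM in LIDPAD libraries; 1 control lay among the LIDPAD values, and the gene missed the threshold with 1.12 ± 0.39 (SE, adjusted p = 0.0517). Col16a1 rose by 0.92 ± 0.24 (SE, adjusted p = 0.033) at week 12, 1.41 ± 0.25 (SE, adjusted p = 0.00152) at week 16 and 1.11 ± 0.28 (SE, adjusted p = 0.0138) at week 32. The week 12 call of Col16a1 was lost without control library 1, LIDPAD library 1 or LIDPAD library 2, with adjusted p of up to 0.0925. At week 16 Col16a1 was 3.04, 1.77 and 2.49 FPM in control and 9.58, 7.77 and 4.89 FPM in LIDPAD libraries. Col20a1, near the filter, fell by 1.21 ± 0.26 (SE, adjusted p = 0.0483) at week 8 and 1.03 ± 0.24 (SE, adjusted p = 0.00923) at week 16. Its week 16 values were 1.92, 1.51 and 1.51 FPM in control and 0.326, 0.807 and 0.567 FPM in LIDPAD libraries. There it passed the filter through the controls alone, which ties the direction of the call to the filter. At week 8 too, the LIDPAD libraries alone would not have passed the filter, which limits that call in the same way. The week 8 call of Col20a1 was lost without any 1 of the 4 libraries and after rescaling to equal totals.

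Col18a1 (chr10:77052178-77166548), a multiplexin of vascular and epithelial basement membranes whose end fragment is endostatin, is known in liver as a product of hepatocytes as well as vessels. It had the highest level per length of the family in both diets, a median over weeks of 119.6 FPM per kb in controls and 83.7 in LIDPAD livers. The length used, 7021 bases for Col18a1, is the union of all annotated exons. Week 8 Col18a1 levels were 893 and 924 FPM in control and 506 and 547 FPM in LIDPAD libraries. At week 12 Col18a1 was 802 and 877 FPM in control and 557 and 551 FPM in LIDPAD libraries. Week 16 Col18a1 levels were 939, 899.6 and 1018 FPM in control and 564, 646 and 554 FPM in LIDPAD libraries. All LIDPAD libraries were below all controls, and Col18a1 fell by 0.79 ± 0.13 (SE, adjusted p = 0.0221), 0.60 ± 0.12 (SE, adjusted p = 0.0127) and 0.70 ± 0.11 (SE, adjusted p = 9.89e-04) on the log2 scale. The week 8 and week 12 calls were lost without LIDPAD library 1 and without LIDPAD library 2, with adjusted p of up to 0.24 at week 8 and 0.246 at week 12. The week 12 call of Col18a1 was also lost after rescaling to equal totals.

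Week 32 Col18a1 levels were 767, 734, 1177 and 695 FPM in control and 625, 607, 463, 596 and 558 FPM in LIDPAD libraries. The groups did not overlap, and the change of -0.54 ± 0.19 (SE, adjusted p = 0.0576) missed the threshold. Week 48 Col18a1 levels were 939, 905 and 491 FPM in control and 558, 669.6, 659 and 659.9 FPM in LIDPAD libraries, with control library 3 as the lowest library of either diet. The change there was -0.24 ± 0.23 (SE, adjusted p = 0.573), and without control library 3 it was -0.54. In the first weeks Col18a1 was 682 and 665 FPM in control and 623 and 552 FPM in LIDPAD libraries at week 1. Its week 4 values were 627 and 587 FPM in control and 612 and 639 FPM in LIDPAD libraries. Beside these falls, the 5 hepatocyte markers Alb, Apoa1, Ttr, Cps1 and Hnf4a summed to 60968 to 74292 FPM in the week 16 controls and 31637 to 39241 FPM in the LIDPAD livers, with 4 of 5 called lower. The part of hepatocyte RNA in the fall of Col18a1 was not tested.

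Because Col18a1 outweighs the other collagens per length, the family total did not rise in step with the other chains. In the controls of week 8 the 44 genes summed to 165 to 168 FPM per kb, of which Col18a1 took 77.2 to 78.4%. In LIDPAD livers of that week the sum was 129 to 133 FPM per kb, with 55.8 to 58.7% from Col18a1. At week 16 the sums were 170.4 to 190.0 FPM per kb in controls and 190.3 to 197 FPM per kb in LIDPAD livers. Col18a1 made up 75.2 to 76.4% of the control and 40.8 to 47.1% of the LIDPAD sum at week 16. Without Col18a1 the family summed to 41.4 to 45.0 FPM per kb in week 16 controls and 103 to 117 FPM per kb in LIDPAD livers. Fibrillar genes took 8.52 to 11.7% of the week 16 control sum and 23.9 to 27.8% of the LIDPAD sum. At week 48 Col18a1 took 39.0 to 78.3% in controls, the low end being control library 3, and 39.1 to 46.1% in LIDPAD livers. These shares describe transcript per exon length and were not tested.

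Col15a1 (chr4:47208161-47313167), the other multiplexin, did not follow Col18a1. Week 8 Col15a1 levels were 11.4 and 4.06 FPM in control and 4.47 and 4.05 FPM in LIDPAD libraries. At week 12 Col15a1 was 6.83 and 6.01 FPM in control and 4.90 and 6.64 FPM in LIDPAD libraries. Both weeks overlapped, with changes of -0.63 ± 0.40 (SE, adjusted p = 0.383) and -0.15 ± 0.18 (SE, adjusted p = 0.641). Week 16 Col15a1 levels were 4.27, 3.35 and 7.00 FPM in control and 12.5, 7.70 and 8.95 FPM in LIDPAD libraries. Week 32 Col15a1 levels were 9.27, 7.47, 4.98 and 2.76 FPM in control and 11.9, 18.7, 38.2, 13.3 and 15.0 FPM in LIDPAD libraries. The groups were apart at both times, and Col15a1 rose by 0.96 ± 0.25 (SE, adjusted p = 0.0137) and 1.57 ± 0.37 (SE, adjusted p = 0.00973). The week 16 call was lost without LIDPAD library 1 (adjusted p = 0.0675). Week 48 Col15a1 values were 9.71, 6.94 and 23.3 FPM in control and 17.8, 19.5, 19.8 and 17.8 FPM in LIDPAD libraries. The change was 0.66 ± 0.34 (SE, adjusted p = 0.262) with all libraries and 1.14 without control library 3. Col15a1 had been 6.27 and 4.44 FPM in control and 2.52 and 4.79 FPM in LIDPAD libraries at week 1 and 6.06 and 4.23 FPM in control and 4.82 and 2.31 FPM in LIDPAD libraries at week 4.

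The network-forming Col8a1, known from vessel walls, rose by 0.82 ± 0.20 (SE, adjusted p = 0.0264) at week 12 and 1.78 ± 0.23 (SE, adjusted p = 2.50e-04) at week 16. Its week 16 values were 1.31, 0.865 and 0.511 FPM in control and 3.98, 4.49 and 4.07 FPM in LIDPAD libraries. The controls alone would not have passed the filter of that week. The week 12 call of Col8a1 was lost in 3 of 4 fits without a library, with adjusted p of up to 0.212 without LIDPAD library 2. Col10a1, of the same structural group and known from growth cartilage, was called once, at week 32, with 0.845, 0.537, 0.832 and 0.485 FPM in control and 1.88, 1.09, 1.56, 1.58 and 0.913 FPM in LIDPAD libraries. That rise of 0.69 ± 0.23 (SE, adjusted p = 0.047) was lost when any 1 of the 4 controls was left out. No control reached 1 FPM, so Col10a1 passed the filter of that week through LIDPAD libraries alone.

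Of the membrane-spanning collagens, Col13a1 was called lower at weeks 16 and 32. Col25a1 passed the filter only at weeks 12 and 16 and was called lower in both. Col13a1, an adhesion protein of cell contacts, was 3.20 and 2.60 FPM in control and 3.65 and 3.88 FPM in LIDPAD libraries at week 4. Week 16 Col13a1 levels were 4.26, 4.42 and 5.15 FPM in control and 3.14, 2.66 and 2.98 FPM in LIDPAD libraries. At week 32 Col13a1 was 3.31, 4.35, 4.66 and 4.07 FPM in control and 0.272, 0.820, 0.944, 2.42 and 2.91 FPM in LIDPAD libraries. The LIDPAD libraries alone would not have passed the filter of week 32. No LIDPAD library reached the control range at weeks 16 and 32, with falls of 0.57 ± 0.16 (SE, adjusted p = 0.0221) and 1.42 ± 0.39 (SE, adjusted p = 0.0203). Each call was lost without single libraries, with adjusted p of up to 0.0758 at week 16, without LIDPAD library 2, and 0.0564 at week 32, without control library 3. Rescaling to equal totals ended the week 16 call of Col13a1. Col25a1, a chain found in amyloid plaques, fell by 1.23 ± 0.23 (SE, adjusted p = 0.00825) at week 12 and 1.17 ± 0.23 (SE, adjusted p = 0.00337) at week 16. Its week 16 values were 1.15, 1.70 and 1.37 FPM in control and 0.366, 0.358 and 0.295 FPM in LIDPAD libraries. It passed the filter at week 12 and at week 16 through the controls alone, so the direction of both calls is tied to the filter. At week 1, where it was not tested, Col25a1 had a mean of 0.367 FPM in control and 0.654 FPM in LIDPAD libraries. The week 12 call of Col25a1 was lost without LIDPAD library 2 (adjusted p = 0.0552).

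Whether the diet effect itself differed between weeks was tested in a joint limma fit of all 14 groups. By the F test over the 7 weeks, 6 of 29 collagen genes were called, against 11.6% of all genes, and 14 had an unadjusted p under 0.05. They were Col6a1 (adjusted p = 0.00234), Col6a2 (adjusted p = 0.00647), Col25a1 (adjusted p = 0.0139), Col4a5 (adjusted p = 0.0243), Col15a1 (adjusted p = 0.0384) and Col6a3 (adjusted p = 0.0444). The fibrillar chains were not among them. Without the 4 libraries described above as standing apart, 18 of 29 were called, against 14.5% of all genes, with Col1a2 (adjusted p = 2.40e-06), Col5a2 (adjusted p = 3.63e-06), Col1a1 (adjusted p = 3.91e-06) and Col3a1 (adjusted p = 8.74e-06) at the head. Those libraries were picked partly by their collagen levels, so that count is no independent test. Between neighbouring weeks the joint limma fit called 0 of 29 collagen genes in every step. Of all genes it called 0% in the steps from week 1 to 4, 4 to 8, 8 to 12 and 12 to 16, 3.08% from week 16 to 32 and 0.231% from week 32 to 48. The unadjusted p was under 0.05 for 0, 2, 1, 0, 7 and 6 collagen genes in these 6 steps.

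Genes that fold, process, bind and break down collagen were read from 4 lists. Of the chaperones and modifying enzymes, 2 of 13 tested members rose at week 8, and 8 of 16 rose and 1 fell at week 16. At week 32, 7 of 16 rose and 3 fell, with a median log2 change of -0.00097. These counts are read against the shares of all genes above. The list summed to 1579 to 1754 FPM in control and 1654 to 1724 FPM in LIDPAD livers at week 16, with overlap. At week 48 the sums were 1421 to 1441 FPM in control and lower, 1180 to 1345 FPM, in LIDPAD livers. Serpinh1, the collagen chaperone HSP47, went from 9.25 ± 2.60 FPM (SD, n = 3) to 31.9 ± 2.63 FPM (SD, n = 3) at week 16, a log2 rise of 1.76 ± 0.17 (SE, adjusted p = 3.61e-05). P3h3, a prolyl 3-hydroxylase, rose by 1.53 ± 0.20 (SE, adjusted p = 2.30e-04). Of the processing and crosslinking genes, 0 of 8 rose and 1 fell at week 8, when the list summed to 100.1 to 108 FPM in control and 75.4 to 82.8 FPM in LIDPAD livers without overlap. At week 16, 6 of 10 rose and 1 fell, and the sums of 86.0 to 104.9 and 98.1 to 109.8 FPM overlapped. The list's smallest p-values were those of Adamts2, which trims the amino end of procollagen and rose by 1.68 ± 0.14 (SE, adjusted p = 1.86e-05), and the crosslinking enzyme Loxl2, which rose by 1.46 ± 0.13 (SE, adjusted p = 2.17e-05). Median log2 changes at week 16 were 0.59 for the first list and 1.05 for the second, beside 0.0012 for all genes tested.

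Of the collagen receptors, 4 of 7 tested members rose at week 16, 6 of 7 at week 32 and 2 of 7 at week 48, with no fall. The shares of all genes called higher in those weeks were 16.3%, 18.0% and 6.54%. Mrc2, which takes up collagen fragments, rose by 1.94 ± 0.23 (SE, adjusted p = 1.45e-04) at week 16, and the receptor kinase Ddr1 by 1.87 ± 0.23 (SE, adjusted p = 1.46e-04). Of the proteases and inhibitors, 1 of 4 rose at week 8, against 3.85% of all genes. Later counts were 6 of 7 at week 16, 7 of 7 at week 32 and 5 of 7 at week 48, beside the same shares as for the receptors. Timp2, a protease inhibitor, rose by 1.51 ± 0.13 (SE, adjusted p = 1.90e-05), and the collagenase Mmp13 by 2.73 ± 0.25 (SE, adjusted p = 2.83e-05), from a control mean of 0.078 FPM to 3.31 FPM. Mmp13 thus passed the filter through LIDPAD libraries alone.

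Markers of other cell types were read beside the collagens, and their counts at week 16 stand against 16.3% of all genes higher and 12.0% lower. The 14 stellate cell and myofibroblast markers, of which 13 were tested, summed to 331 to 413 FPM in week 16 controls and 616 to 649 FPM in LIDPAD livers, with 10 of 13 higher. The smallest p-values were those of Lum, at 6.64 ± 1.20 and 22.8 ± 2.71 FPM (SD, n = 3 each), and Dcn, at 104 ± 22.9 and 235 ± 9.31 FPM (SD, n = 3 each), which encode collagen-binding proteoglycans. At week 8, 1 of 13 of these markers was called higher, against 3.85% of all genes. Their sums at week 8 were 294 to 318 FPM in control and 356 to 367 FPM in LIDPAD livers, without overlap, and their median log2 change was 0.29. The 8 portal fibroblast and mesothelial markers summed to 4.74 to 8.80 FPM and 15.8 to 19.0 FPM at week 16, with 4 of 4 tested higher. Macrophage markers summed to 69.1 to 115 FPM and 180.2 to 279 FPM at week 16, with 6 of 7 higher, and cholangiocyte markers to 4.27 to 4.77 FPM and 8.65 to 13.9 FPM, with 2 of 3 higher. Endothelial markers summed to 251 to 270.2 FPM and 248 to 264 FPM, with 2 of 8 higher and 1 lower. No marker of these lists was at 0 in every library of week 16. Of the 4 adipocyte markers 2 were at 0 in all libraries of week 16, and their sum was at most 0.393 FPM in any library of any week. The part of each cell type in the collagen values was not tested.

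Libraries also fell into 3 sets by how their reads were divided among the 4 columns, and the labels do not say what separates them. Set A held weeks 1 to 12, set B week 16 and part of week 32, and set C the rest, so only week 32 can be split. Within set B of week 32, with 3 libraries per diet, 14 of 25 collagen genes were higher and 1 lower, against 15.8% and 7.24% of all genes. Col3a1, with 2.05 ± 0.68 (SE, adjusted p = 0.0626), and Col14a1, with 0.89 ± 0.30 (SE, adjusted p = 0.0683), were not called there. Set C of week 32 held 1 control and 2 LIDPAD libraries and gave a Col3a1 log2 change of 3.04 and a Col14a1 log2 change of 1.02, for which no test is given. Col4a5 changed by 2.86 within set B and 1.06 within set C. Without LIDPAD library 1, which is in set B, 16 of 23 collagen genes were higher and 1 lower at week 32, against 17.4% and 8.66% of all genes.

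The early weeks depend on single libraries as well. At week 4, 4 of 21 collagen genes were higher and 0 lower without control library 2, against 1.04% and 0.849% of all genes. Without control library 1 instead, 1 of 22 was higher and 6 were lower, against 3.17% and 2.95%. At week 1, 9 of 20 were higher and 2 lower without LIDPAD library 1, against 4.78% and 3.79%, and 1 of 20 was higher and 2 were lower without LIDPAD library 2, against 3.14% and 3.63%. Each of these fits leaves 1 library in an arm, which is assumed to vary like the libraries of the other diet.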

How the data were processed

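The deposited values are signal: FPM, which the authors derived by scaling each column's gene counts with its own size factor. There are 7 tables, 1 per duration. Tables were normalized separately, so tests stay within a week. Per the submitters' processing notes, the tools were HISAT2, featureCounts and DESeq2 and the build GRCm38. Versions, strand setting and filters are not given in the sources used here. Extraction used TRIzol and a column kit, per the labels' protocols. Values of a column were whole multiples of 1 step, and 100% came out as whole reads within 0.02 reads.

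Sets of 4 columns with a chi-square per gene of 1.98 to 2.27 over genes with 200 to 2000 reads, against at least 2.65 between sets, were averaged to 1 library. Sampling of single reads would give about 1, so columns of a set differed by more than that unless both ends of a fragment were counted. Values of 2 reads were 5.35 times as frequent as values of 1 read. Whether both ends of a fragment were counted is not given, and edgeR and DESeq2 took the counts as single reads. No column was left unmapped. Depth was 10870033 to 53802026 reads, so low genes are measured less precisely in shallow libraries.

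Each week was fitted with limma 3.58.1 (R 4.3.3) on log2(FPM + 0.5) with a trended prior variance and two-sided tests. A gene entered if it reached 1 FPM in a number of libraries equal to the size of the smaller group. Benjamini-Hochberg adjustment ran over all genes tested. A joint fit of 14 group means compared the weeks. The procedure was tested on simulated data. Alternatives were pseudocounts of 0.1 and 1, no filter, rescaling to a total of 1000000, quantile normalization, a replicate block, edgeR 4.0.16 and DESeq2 1.42.0 on the recovered reads, leaving out each library, each column as a sample, and week 32 within a set of libraries. Added after seeing the data were the set as a term at week 32 and the joint fit without 4 libraries.

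The members and lists were chosen with earlier results of these data known. Library values are printed for Col1a1, Col1a2, Col3a1, Col4a1, Col4a2, Col6a1, Col6a2, Col6a3, Col14a1, Col15a1, Col18a1 and the 3 members with the smallest p in each week. Every called member is named, and of the other lists the 2 with the smallest p at week 16. Exon lengths came from GENCODE, as the union of all annotated exons, and upstream sequences from RefSeq, both on GRCm38. Levels per kb between genes depend on that annotation. Plots were drawn with matplotlib 3.10.9, and tables joined with pandas 2.3.3 and numpy 2.4.6 under Python 3.11.15.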

Additional observations from a re-analysis of the deposited data

Results flagged for a closer look

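In the 5 LIDPAD libraries of week 32, Col14a1 had its lowest value, 57.8 FPM in library 1, further from the other 4 than the spread of the group allows by Dixon's test, and Col15a1 its highest, 38.2 FPM in library 3. Of 42 gene groups checked in this way 2 were marked, and chance marks about 5%. Library 1 is the one that went against its label for Cfd, Sqle and Alb, though not for Hsd3b5, Gpnmb and H19. The part of that in the Col14a1 value was not tested.

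The diet effect differed between the 7 weeks for 6 of 29 tested collagen genes by the joint limma F test, against 11.6% of all genes. The adjusted p was 0.00234 for Col6a1, 0.00647 for Col6a2, 0.0139 for Col25a1, 0.0243 for Col4a5, 0.0384 for Col15a1 and 0.0444 for Col6a3. The 3 common type VI chains are all among them. At week 4 the log2 changes of Col6a1, Col6a2 and Col6a3 were -0.24, -0.21 and -0.48, none of them called, and at week 32 they were 1.88, 2.10 and 2.13, all called. The week 4 values depend on single libraries. Their median was 0.21 without control library 2, which stood apart, and -0.70 without control library 1.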

How the results depend on the processing

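Pseudocounts, no filter and quantile normalization left the number of collagen genes called within 1.5 times in every week. Rescaling each library to a total of 1000000 raised the median change of all genes by 0.11, 0.19, 0.20, 0.29 and 0.26 (log2) from week 8 to week 48. It gave 0 calls in place of 1 at week 1 and 13 (12 higher) in place of 8 at week 48. edgeR gave 3 at week 48 (2 higher, 1 lower) and DESeq2 9. Leaving out each library in turn gave 0 to 11 calls at week 1, 0 to 7 at week 4, 3 to 11 at week 8, 11 to 16 at week 12, 20 to 22 at week 16, 14 to 18 at week 32 and 0 to 23 at week 48. The count was highest without LIDPAD library 1 at week 1, without control library 1 at week 4 and without control library 3 at week 48. It was lowest without either control library at week 1, without either LIDPAD library at week 8 and without LIDPAD library 3 at week 48. Each column as a sample gave 11, 1 and 19 calls at weeks 1, 4 and 48, where parts of 1 library count as replicates. The set of libraries as a term gave 21 calls at week 32 in place of 17. The test between weeks gave 6 calls with either pseudocount, 5 after rescaling and 18 without the 4 libraries that stand apart. Under the replicate block the counts were 1, 0, 8, 17, 22, 19 and 0 from week 1 to week 48, the last in place of 8. The library numbers do not pair the samples: deviations of same-numbered libraries correlated at -0.12 to 0.12. With 2 libraries per diet up to week 12, small changes of low collagens were not detectable at this depth.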
